A study of Mus musculus with 3 samples.

Results

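The cells described here are the 110 cells that the authors named MatFB-Im,Cuff in the GFP-high, tdT-negative sort of mouse lung mesenchyme, called cuff cells below. They were taken by that name and gate from the authors' deposited cell table, out of 3347 cells of the gate, of which they made up 3.29%, and 6142 cells in all. The cuff cells were set against fibroblasts of the same library that the authors named AdvFB (328 cells), MatFB-Type 2 (44 cells) and MyoFB. The MyoFB group was 2659 cells under the names MyoFB-IMR, MyoFB-Int and MyoFB-Ter. Cells of the gate under other names were not compared. The 205 cells that carried the name MatFB-Im,Cuff in the GFP-low, tdT-negative gate served as a further comparison. The abbreviations are the authors' and are not spelled out in the sources used here.

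All cells came from pups heterozygous for Fgf18CreERT2, for the ROSATDTomato reporter and for PdgfrαEGFP. Tamoxifen, which activates the CreERT2 recombinase, was given from postnatal day 2 to day 5, and lungs were taken at postnatal day 7. Every group therefore carried 1 modified Fgf18 allele and 1 modified Pdgfra allele, and the library held no untreated cells. A tdT-negative cell is one in which tdTomato was not seen at the sort. It need not be a cell that never expressed Fgf18. Each gate was 1 library, and the sources used here do not say how many pups it pooled. Of the 110 cuff cells, 50 held at least 5 Xist UMIs, and 56 held a Y-linked UMI and no Xist UMI, but 44 of those 50 held a Y-linked UMI too. Of the barcodes, 4 were shared between libraries, and 0 of these belonged to the cuff cells.

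The bronchovascular cuff is the loose connective tissue that surrounds the larger airways and vessels of the lung. It holds fibroblasts, lymphatics and nerves, and it is the usual home of adventitial fibroblasts, which are known for collagens, Dcn, Pi16 and Ebf1. Fibroblasts of the alveolar wall are known for Tcf21, Npnt and Limch1, and alveolar myofibroblasts, which build the elastin of the growing septa, for Pdgfra, Tgfbi and contractile genes.

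The unit of measurement was the unique molecular identifier (UMI), which counts captured RNA molecules. A gene's level in a group is its share of all UMIs of that group's cells, in CPM. The 110 cuff cells held 2071010 UMIs, with a median of 17598.5 UMIs and 4794 genes per cell and 2.11% mitochondrial UMIs. The median was 24677.5 UMIs in AdvFB, 18697.5 in MatFB-Type 2 and 19005 in MyoFB cells. Since all groups came from 1 library, cells are not replicates, no test could be run, and the 95% intervals given here cover counting error only. How the names were made is not stated, and they may rest on these same genes, so each difference is a description of the named cells and not a test of their identity. Shares of cells with a UMI were taken after every cell was thinned to 5000 UMIs.

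All 5 markers of the cuff population, Adh7, Itgbl1, Unc5d, Rbp4 and Agtr2, were present in the cuff cells. Adh7 and Unc5d were close to absent from the AdvFB, MatFB-Type 2 and MyoFB cells of the gate. Adh7, an alcohol dehydrogenase that oxidises retinol, lies on chromosome 3 at chr3:138217760-138233382 (GRCm38, + strand). Its level was 109.6 CPM (95.8 to 125) in cuff cells, 0.608 CPM in AdvFB, 2.25 CPM in MatFB-Type 2 and 0.038 CPM in MyoFB cells. Unc5d, a netrin receptor at chr8:28646717-29219636 on the - strand, stood at 84.5 CPM (72.4 to 98.0) in cuff cells, against 0.243 CPM in AdvFB and 0.209 CPM in MyoFB cells. MatFB-Type 2 cells held 0 Unc5d UMIs, which allows up to 3.37 CPM, so that the cuff level was at least 25.05-fold higher. These intervals do not overlap for either gene.

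The other 3 markers were shared with neighbouring groups, Itgbl1 and Agtr2 mainly with AdvFB and Rbp4 with both AdvFB and MatFB-Type 2. Itgbl1, an integrin beta-like secreted protein at chr14:123659971-123975618 on the + strand, measured 366.5 CPM in cuff cells and 234 CPM in AdvFB, a ratio of 1.56 (1.44 to 1.70), but 6.75 CPM in MatFB-Type 2 and 0.551 CPM in MyoFB cells. Agtr2, the angiotensin II type 2 receptor at chrX:21484544-21489164 on the + strand, measured 166 CPM in cuff cells and 137 CPM in AdvFB, a ratio of 1.21 (1.07 to 1.37), and 14.6 CPM in MatFB-Type 2 cells. Rbp4, the retinol carrier protein at chr19:38116629-38125281 on the - strand, measured 393 CPM in cuff cells, 149 CPM in AdvFB and 287 CPM in MatFB-Type 2 cells. In MyoFB cells Agtr2 and Rbp4 stood at 0.323 and 1.86 CPM. Against AdvFB, 3 of the 5 markers were at least 2-fold higher (7.32% of all genes counted), against MatFB-Type 2 4 of 5 (8.20%) and against MyoFB 5 of 5 (10.8%).

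**Figure D1:**
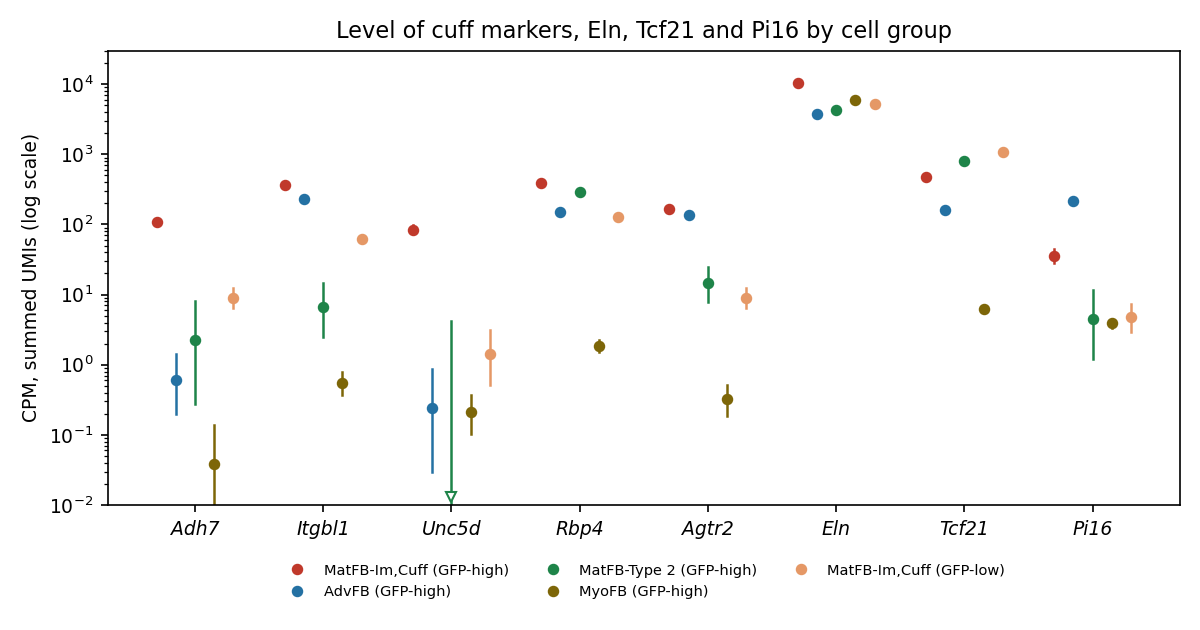
Level of the 5 cuff markers and of Eln, Tcf21 and Pi16 in CPM of summed UMIs (vertical axis, log scale), by cell group (colours). Points are group levels, bars are exact Poisson 95% intervals of the counts, cut at the lower edge of the axis, and the open triangle marks 0 UMIs. Adh7 and Unc5d stood at 109.6 and 84.5 CPM in cuff cells, while Itgbl1 and Agtr2 were near the cuff level in AdvFB, and Eln was highest in cuff cells at 10325 CPM.

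Per cell, the markers met in the same cells more often in the cuff cells than elsewhere. With all UMIs, at least 3 of the 5 markers were detected in 67 of 110 cuff cells, or 60.9% (51.1 to 70.1, Clopper-Pearson), in 95 of 328 AdvFB, in 0 of 44 MatFB-Type 2 and in 1 of 2659 MyoFB cells. At 5000 UMIs a cell, the share was 36.4% of cuff cells and 4.57% of AdvFB cells. No cuff cell was without a marker UMI when all UMIs were used. Adh7 was seen in 30.9% of thinned cuff cells, 0.61% of AdvFB, 0% of MatFB-Type 2 and 0% of MyoFB cells, and Rbp4 in 77.3%, 41.8%, 45.5% and 0.677%. Unc5d was narrower. With all UMIs it was found in 12 of the 110 cuff cells, up to 67 UMIs in 1 cell.

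The 250 bases before the RefSeq start of Adh7 and of Wif1, a cuff marker and a Wnt inhibitor that were both over 100-fold above AdvFB, are printed from RefSeq on GRCm38.p6. They stand at chr3:138217523-138217772 and chr10:121033754-121034003, both on the + strand. Capitals mark matches to 4 motifs searched on both strands: TATAAA, the TCF/LEF core CTTTGA, the nuclear receptor element AGGTCA and the E-box CAGCTG.
Adh7: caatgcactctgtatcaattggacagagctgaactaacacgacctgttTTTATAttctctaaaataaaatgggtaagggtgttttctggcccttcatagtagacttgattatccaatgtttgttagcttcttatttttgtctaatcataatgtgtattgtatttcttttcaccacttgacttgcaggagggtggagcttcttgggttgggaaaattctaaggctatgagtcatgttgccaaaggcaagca
Wif1: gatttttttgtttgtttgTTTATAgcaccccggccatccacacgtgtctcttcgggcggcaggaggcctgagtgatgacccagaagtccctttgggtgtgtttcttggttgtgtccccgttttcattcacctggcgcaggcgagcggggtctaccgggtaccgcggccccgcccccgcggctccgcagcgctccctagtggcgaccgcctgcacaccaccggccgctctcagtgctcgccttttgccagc
Each window held 1 match, TTTATA, the reverse complement of TATAAA, which starts 202 bases before the start of Adh7 and 232 bases before that of Wif1. TATAAA on either strand was in 12.4% of 32851 promoter windows of this length, CTTTGA in 13.8%, AGGTCA in 14.02% and CAGCTG in 13%. Of 10 genes looked up, the 5 markers, Wif1, Lgr5, Notum, Axin2 and Nkd1, 7 were in the RefSeq table, and CTTTGA was found before Rbp4 only. A match is a description of letters and not a binding site.

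Across all genes, a gene was counted when it reached 10 CPM in the higher group and was detected in 5% or more of that group's cells, and called when the ratio of CPM + 1 was at least 2-fold. Cuff cells were higher than AdvFB in 712 of 9726 genes (7.32%) and lower in 528 (5.43%). They were higher than MatFB-Type 2 in 814 of 9926 genes (8.20%) and lower in 598 (6.02%), and higher than MyoFB in 1093 of 10133 genes (10.8%) and lower in 1035 (10.2%). By this scaling 57.4% of the genes called against AdvFB were higher in cuff cells, by TMM 46.4% and by median-of-ratios size factors 47.4%; against MyoFB the shares were 51.4%, 57.4% and 59.6%. Under TMM the median ratio over all these genes shifted by -0.16 (log2) against AdvFB, 0.07 against MatFB-Type 2 and 0.11 against MyoFB. The 3 comparisons share the cuff cells.

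Cuff cells were at least 2-fold above each of the 3 other groups in 152 of 9224 genes (1.65%) and below each in 18 of 7672 (0.235%). The 15 farthest above all were led by Unc5d and Adh7 and held secreted regulators, matrix proteins and a noncoding RNA. Igfbp2, which binds insulin-like growth factors, was 107.7 CPM in cuff cells, 1.22 CPM in AdvFB and 3.65 CPM in MyoFB cells, and 0 UMIs in MatFB-Type 2 (at least 31.9-fold). Mannr, a long noncoding RNA, was 391.6 CPM in cuff cells and 3.65, 30.4 and 7.41 CPM in AdvFB, MatFB-Type 2 and MyoFB cells, with a UMI in 93 of the 110 cuff cells when all UMIs were used. Lamc3, a laminin gamma chain, was 229 CPM in cuff cells, against 0.73, 19.1 and 28.2 CPM in the same 3 groups. Lamc3 was seen in 83 of the 110 cuff cells with all UMIs and, at equal depth, in 55.5% of thinned cuff cells, against 0.305% of AdvFB, 4.55% of MatFB-Type 2 and 10.2% of MyoFB cells.

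Col7a1, the collagen of anchoring fibrils, was 92.7 CPM in cuff cells, 1.83 CPM in AdvFB, 8.996 CPM in MatFB-Type 2 and 1.61 CPM in MyoFB cells. Nrg1, a ligand of ErbB receptors, was 138 CPM in cuff cells and 16.7, 3.37 and 1.39 CPM in AdvFB, MatFB-Type 2 and MyoFB cells. Stc2, a secreted stanniocalcin, was 111 CPM in cuff cells and at most 16.8 CPM in the others. Osr2, a zinc finger transcription factor, was 75.3 CPM in cuff cells and 9.61, 7.87 and 0.285 CPM in AdvFB, MatFB-Type 2 and MyoFB cells. The remaining members were Trpm3, a cation channel, Ecrg4, a secreted peptide precursor, Arfgef3, Zranb3, Lrrc7 and Wif1, at 69.0 to 182 CPM in cuff cells. Lrrc7 rested on 19 of the 110 cells, counted with all UMIs.

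**Figure D2:**
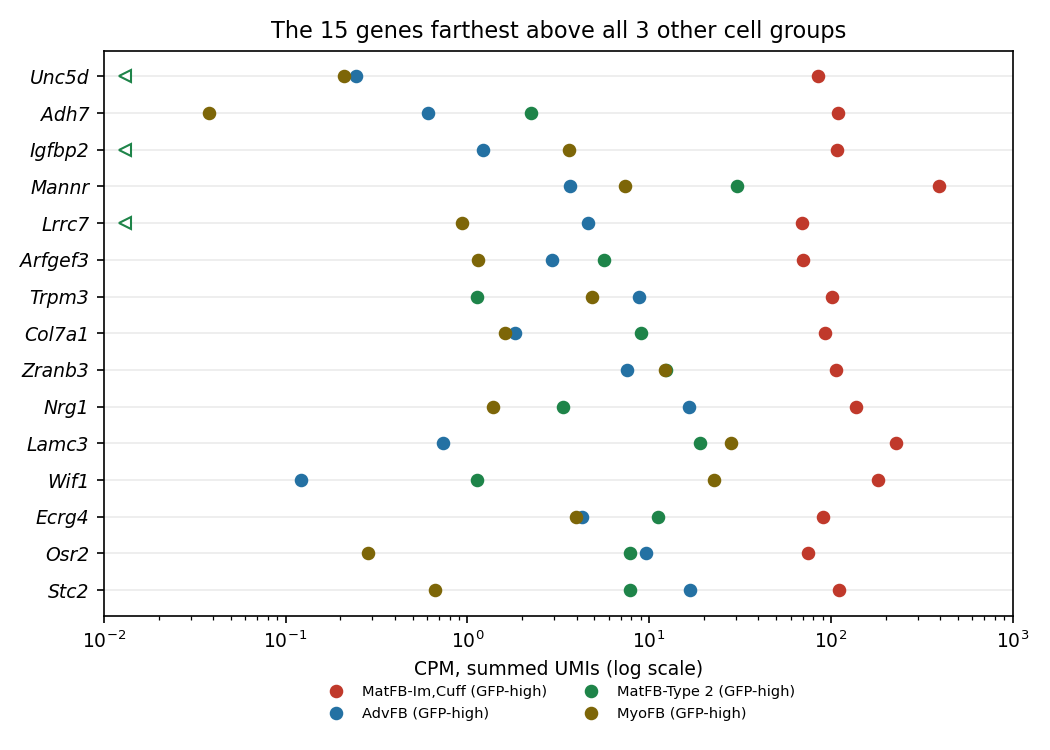
Level of the 15 genes farthest above AdvFB, MatFB-Type 2 and MyoFB cells together, in CPM of summed UMIs (horizontal axis, log scale), with 1 point per cell group. Open triangles mark 0 UMIs. Cuff cells stood to the right of all other groups in every gene shown, from 69.0 CPM for Lrrc7 to 391.6 CPM for Mannr.

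The 10 genes farthest below all 3 groups held Bmper, a secreted modulator of bone morphogenetic proteins, at 11.6 CPM in cuff cells and 66.3, 181 and 271 CPM in AdvFB, MatFB-Type 2 and MyoFB cells. Tgfbi, a matrix protein induced by TGF-beta, was 37.7 CPM in cuff cells and 169, 92.2 and 1880 CPM in the others in that order. Wnt5a, a ligand of non-canonical Wnt signalling, was 48.8 CPM in cuff cells and 94.6, 175 and 501 CPM in the others, short of 2-fold against AdvFB. Mdk, the growth factor midkine, was 250 CPM in cuff cells and 452 to 470 CPM elsewhere, a ratio short of 2-fold. The remaining members were Adam19, Itpr2, Marchf3, Nav2, Mast4 and Adamts12. Of these, Nav2, Mast4 and Adamts12 ranked after Wnt5a and were likewise not 2-fold below every group. Among cells with at least 5 Xist UMIs Bmper was not lower than in AdvFB, at a log2 ratio of 0.06.

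Several regulators and targets of canonical Wnt signalling were higher in cuff cells than in the other 3 groups, while other inhibitors of the pathway were not. Canonical Wnt signalling stabilises beta-catenin, which with TCF and LEF factors switches on genes such as Axin2, Lgr5, Nkd1 and Notum, and several of these feed back on the pathway. Wif1, a secreted Wnt inhibitor at chr10:121033960-121100650, was 182 CPM (164 to 201) in cuff cells, 0.122 CPM (1 UMI) in AdvFB, 1.12 CPM (1 UMI) in MatFB-Type 2 and 22.7 CPM in MyoFB cells. Notum, an enzyme that removes the lipid of Wnt ligands, was 65.2 CPM in cuff cells, against 0.852, 2.25 and 24.4 CPM in AdvFB, MatFB-Type 2 and MyoFB cells. Lgr5, a receptor of R-spondins, was 106 CPM in cuff cells, against 0.608, 1.12 and 19.9 CPM. Axin2, a scaffold of the beta-catenin destruction complex, was 105 CPM in cuff cells, 8.76 CPM in AdvFB, 47.2 CPM in MatFB-Type 2 and 51.7 CPM in MyoFB cells. Wif1, Notum, Lgr5 and Axin2 were at least 2-fold above each of the 3 groups, and Sfrp2, a secreted frizzled-related protein, was as well, at 32.8 CPM in cuff cells and 2.25 to 5.55 CPM elsewhere. Its relatives Sfrp1 and Sfrp4 were lower than in AdvFB: Sfrp1 was 37.7 CPM in cuff cells, 161 CPM in AdvFB, 48.4 CPM in MatFB-Type 2 and 1.12 CPM in MyoFB cells, and Sfrp4 was 1.45 CPM in cuff cells and 12.9 CPM in AdvFB.

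Over the Wnt list, 12 of 22 members measured were higher and 4 lower in cuff cells than in AdvFB, with a median log2 ratio of 1.10, where the median of all counted genes was 0.10. Against MatFB-Type 2, 9 of 21 were higher and 3 lower (median 0.17, all genes -0.03). Against MyoFB, 10 of 22 were higher and 5 lower (median 0.87, all genes -0.14). Among all genes, 7.32%, 8.20% and 10.8% were higher than in AdvFB, MatFB-Type 2 and MyoFB, and 5.43%, 6.02% and 10.2% lower. Lef1, a nuclear partner of beta-catenin, went the other way against MyoFB, at 3.38 CPM in cuff cells and 198 CPM in MyoFB cells. Nkd1 was 6.08-fold above AdvFB and at 69.5 CPM was close to MyoFB, at 85.6 CPM. Among the ligands, Wnt2 was 3.86 CPM in cuff cells and 33.7 CPM in MatFB-Type 2 cells. Rspo2, an R-spondin, was 18.3 CPM in cuff cells and 7.79 CPM in AdvFB, but all 38 of its UMIs lay in 18 cells that clustered apart from the rest.

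In adventitial and alveolar marker genes the cuff cells lay between AdvFB and MatFB-Type 2. Of 17 adventitial fibroblast markers measured, 0 were higher and 12 lower in cuff cells than in AdvFB (median log2 ratio -1.72), while 7 of 15 were higher and 1 lower than in MatFB-Type 2 (median 1.00). Of 14 alveolar fibroblast markers measured, 10 were higher and 0 lower in cuff cells than in AdvFB (median 2.46), and against MatFB-Type 2 0 of 18 were higher and 15 lower (median -2.37). Both lists were far above MyoFB, with 13 of 15 and 13 of 14 members higher. These directions held under TMM and under median-of-ratios size factors. Among all genes, 7.32% were higher and 5.43% lower than in AdvFB, 8.20% and 6.02% than in MatFB-Type 2, and 10.8% and 10.2% than in MyoFB.

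Dcn, the small proteoglycan decorin, was 626 CPM in cuff cells, 6117 CPM in AdvFB, 17.99 CPM in MatFB-Type 2 and 8.55 CPM in MyoFB cells, but 745 of its 1297 UMIs in cuff cells lay in 18 cells that clustered with the other fibroblasts, and the other 92 held 334 CPM. Pi16, a marker of adventitial fibroblasts, was 35.7 CPM in cuff cells and 217, 4.498 and 3.87 CPM in the same 3 groups. Ebf1, a transcription factor of adventitial cells, was 69.0 CPM in cuff cells, 38.1 CPM in those 92, and 1247 CPM in AdvFB, and its paralog Ebf2 was 2.41 CPM and 278 CPM. Ly6a and Ly6c1, surface proteins of adventitial fibroblasts, had 0 UMIs in the 110 cuff cells, which allows up to 1.45 CPM, and 183 and 64.5 CPM in AdvFB. Abca8a, a lipid transporter, went the other way, at 1336 CPM in cuff cells, 802 CPM in AdvFB and 608 CPM in MatFB-Type 2 cells.

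Tcf21, a transcription factor of alveolar fibroblasts, was 478 CPM in cuff cells, 163 CPM in AdvFB, 805 CPM in MatFB-Type 2 and 6.14 CPM in MyoFB cells. Limch1, an actin-binding protein, was 1441 CPM in cuff cells and 188, 3866 and 8.83 CPM in the others in that order. Npnt, the integrin ligand nephronectin, was 282 CPM in cuff cells and 34.2, 1534 and 2.43 CPM. Itga8, the integrin chain that receives Npnt, was 505 CPM in cuff cells, 24.0 CPM in AdvFB, 775 CPM in MatFB-Type 2 and 2.34 CPM in MyoFB cells. Nebl, an actin-associated protein, was 143 CPM in cuff cells and 2152 CPM in MatFB-Type 2 cells. Each of these 5 genes ranked MatFB-Type 2 above the cuff cells and the cuff cells above AdvFB.

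The 2 programmes met in single cells, in cuff cells and in most AdvFB and MatFB-Type 2 cells alike. Per 5000 UMIs, the 18 adventitial markers gave a median of 37 UMIs in cuff cells, 99 in AdvFB and 23 in MatFB-Type 2 cells, and the 18 alveolar markers a median of 28, 14 and 87. Cuff cells ranged from 13 to 92 adventitial and from 4 to 81 alveolar marker UMIs, so the groups overlap at their edges. At least 10 UMIs of each list were held by 107 of 110 cuff cells, 43 of 44 MatFB-Type 2 and 240 of 328 AdvFB cells. Holding both was thus not particular to the cuff cells. At that depth Tcf21 and Dcn were both detected in 36.4% of cuff cells, 50.6% of AdvFB and 4.55% of MatFB-Type 2 cells. Cells with both genes were thus at least as frequent among AdvFB as among cuff cells.

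**Figure D3:**
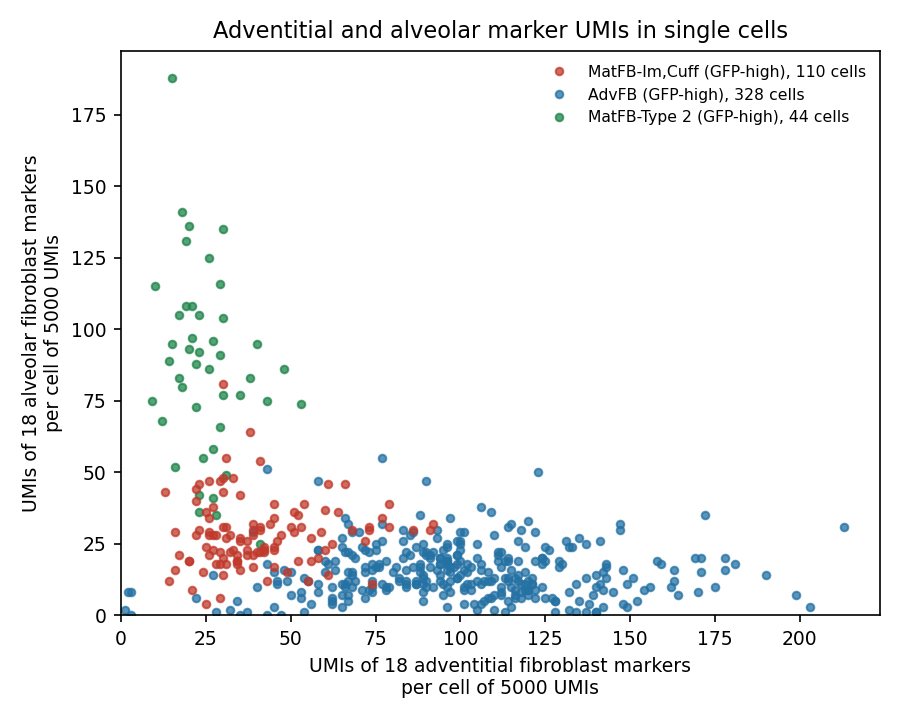
UMIs of 18 adventitial fibroblast markers (horizontal axis) and of 18 alveolar fibroblast markers (vertical axis) in each cell thinned to 5000 UMIs, with 1 point per cell. Cuff cells, with medians of 37 and 28, lie between MatFB-Type 2 cells, with medians of 23 and 87, and AdvFB cells, with medians of 99 and 14.

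Elastin was higher in cuff cells than in the other 3 groups. Eln, the precursor of elastic fibres, at chr5:134702593-134747323 on the - strand, was 10325 CPM in cuff cells, 3771 CPM in AdvFB, 4352 CPM in MatFB-Type 2 and 5970 CPM in MyoFB cells, and every cuff cell held between 8 and 844 Eln UMIs, with a median of 157.5. The cuff level was 2.74-fold (2.69 to 2.79) above AdvFB and 1.73-fold (1.71 to 1.75) above MyoFB. Fbn2, a microfibril protein of developing tissue, was 426 CPM in cuff cells and 169, 36.0 and 212 CPM in AdvFB, MatFB-Type 2 and MyoFB cells. Ltbp1, which anchors latent TGF-beta, was 314 CPM in cuff cells and 147, 145 and 28.7 CPM. Ltbp2, a microfibril-associated protein, was 572 CPM in cuff cells, 39.5 CPM in AdvFB and 214 CPM in MatFB-Type 2, but 849 CPM in MyoFB cells.

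Of 20 elastic fibre genes measured, 5 were higher and 1 lower in cuff cells than in AdvFB (median log2 ratio 0.06, which turned to -0.09 under TMM). Against MatFB-Type 2, 9 were higher and 1 lower (median 0.95), and against MyoFB 11 were higher and 1 lower (median 1.31). Among all genes, 7.32%, 8.20% and 10.8% were higher and 5.43%, 6.02% and 10.2% lower in these comparisons. The 1 of 20 lower than in AdvFB was near the share of all genes. Mfap5 was the 1 lower than in AdvFB, at 720 CPM in cuff cells and 1590 CPM in AdvFB. Fbln5, needed for elastic fibre assembly, was 390 CPM in cuff cells, 443 CPM in AdvFB, 838 CPM in MatFB-Type 2 and 13.2 CPM in MyoFB cells. The crosslinking enzymes Lox and Loxl1 were within 2-fold of AdvFB and MatFB-Type 2 and 7.98-fold and 3.06-fold above MyoFB.

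More collagen genes were lower than higher against AdvFB, and more were higher than lower against MyoFB. Of 24 collagen genes measured, 4 were higher and 12 lower in cuff cells than in AdvFB (median log2 ratio -0.81). Among all genes 7.32% were higher and 5.43% lower. Against MatFB-Type 2, 9 of 23 were higher and 3 lower (median 0.77, all genes 8.20% and 6.02%). Against MyoFB, 14 of 22 were higher and 2 lower (median 2.06, all genes 10.8% and 10.2%). Col1a1 was 4476 CPM in cuff cells, 18483 CPM in AdvFB, 1861 CPM in MatFB-Type 2 and 767 CPM in MyoFB cells. Col3a1 was 5.86-fold (5.74 to 5.99) lower in cuff cells than in AdvFB. Col15a1, a basement membrane collagen of vessels and adventitia, was 98.0 CPM in cuff cells, 211 CPM in AdvFB and 0 UMIs in MatFB-Type 2. Col13a1, a transmembrane collagen of alveolar fibroblasts, was 134 CPM in cuff cells, 6.08 CPM in AdvFB and 445 CPM in MatFB-Type 2 cells. Of matricellular proteins, 3 of 17 were higher and 9 lower than in AdvFB and 8 of 16 higher and 0 lower than in MatFB-Type 2, and Postn, or periostin, was 50.2 CPM in cuff cells and 1853 CPM in AdvFB.

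**Figure D4:**
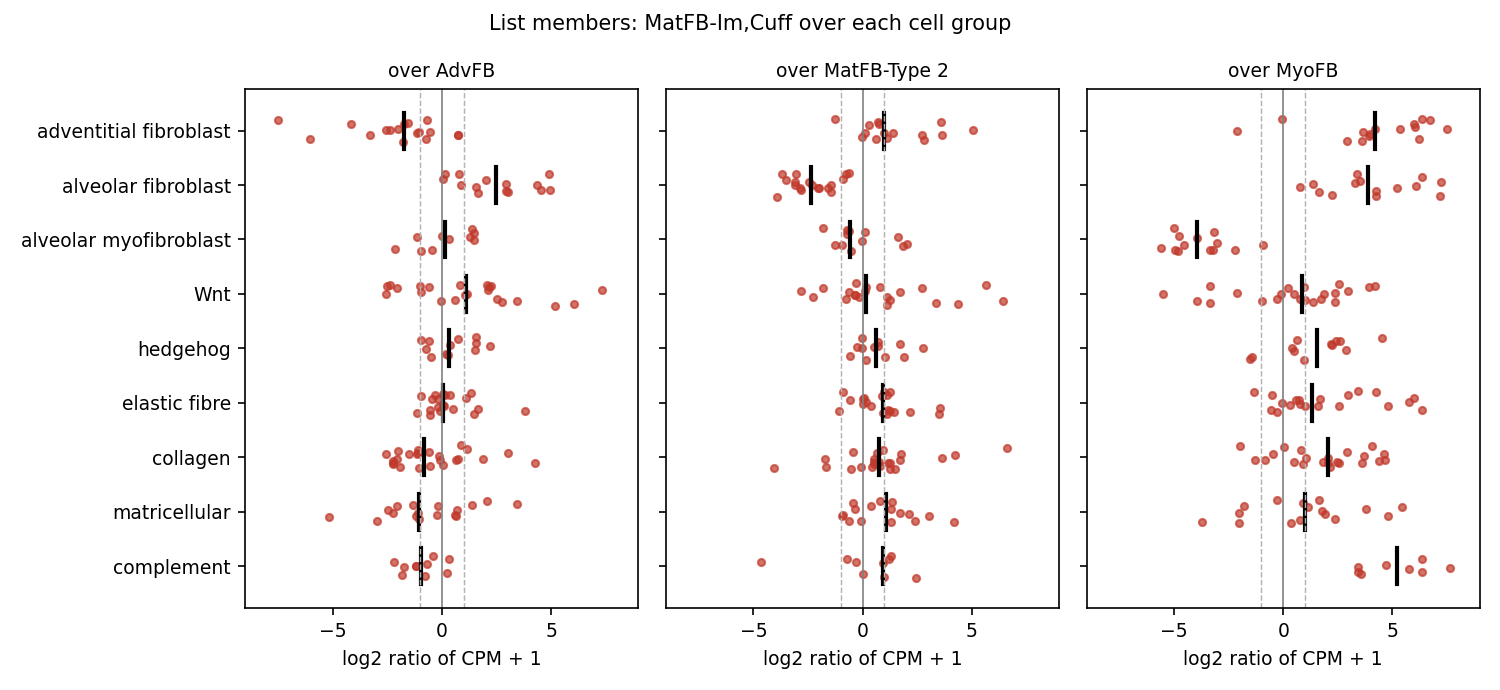
Log2 ratio of CPM + 1 of cuff cells over AdvFB, MatFB-Type 2 and MyoFB (panels) for the measured members of 9 gene lists (rows), with 1 point per gene, spread vertically at random for visibility. Thick bars are medians and dashed lines mark 2-fold. Adventitial markers lie at a median of -1.72 over AdvFB and 1.00 over MatFB-Type 2, and alveolar markers at 2.46 and -2.37.

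Genes of retinoid handling accompanied Adh7 and Rbp4 in part. Retinol is carried by Rbp4, oxidised by alcohol dehydrogenases and then by aldehyde dehydrogenases to retinoic acid, which acts through receptors such as Rarb. Of 14 genes measured against AdvFB, 5 were higher and 2 lower in cuff cells (7.32% and 5.43% of all genes). The 5 were Rbp4 and Adh7 themselves, Adh1, Aldh1a1 and Rarb. Against MatFB-Type 2, 3 of 12 were higher and 1 lower (8.20% and 6.02%). The 3 were Adh7 itself, Aldh1a1 and Rarb. Adh1 was 683 CPM in cuff cells, 220 CPM in AdvFB and 523 CPM in MatFB-Type 2 cells. Rarb was 60.8 CPM in cuff cells, 15.1 CPM in AdvFB, 2.25 CPM in MatFB-Type 2 and 60.0 CPM in MyoFB cells. Aldh1a1 was 87.9 CPM in cuff cells and 33.3 to 42.2 CPM in the others. Aldh1a2, which makes retinoic acid in much of the embryo, was 2.41 CPM in cuff cells and 102 CPM in AdvFB.

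The receptors Agtr2 and Unc5d were set beside their families. In the angiotensin and endothelin list, 3 of 8 genes were higher and 2 lower in cuff cells than in AdvFB. Ednra, an endothelin receptor, was 626 CPM in cuff cells, 149 CPM in AdvFB and 829 CPM in MatFB-Type 2, and Agt, the precursor of angiotensin, was 15.5 CPM in cuff cells and 745 CPM in MyoFB cells. The guidance list held netrins, slits, semaphorins, ephrins and their receptors. Of these, 9 of 29 were higher and 10 lower than in AdvFB, and 11 of 29 higher and 5 lower than in MatFB-Type 2. Unc5d itself was 1 of the 9 and 1 of the 11. Among all genes counted, 7.32% were higher and 5.43% lower than in AdvFB, and 8.20% and 6.02% than in MatFB-Type 2. Slit2, a secreted ligand, was 462 CPM in cuff cells, 170 CPM in AdvFB and 2484 CPM in MatFB-Type 2, whereas its relative Slit3 was 388 CPM, 1647 CPM and 920 CPM in the same order. Robo2, a slit receptor, was 1140 CPM in cuff cells, 409 CPM in AdvFB, 1210 CPM in MatFB-Type 2 and 2478 CPM in MyoFB cells.

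Hedgehog genes were mostly within 2-fold of AdvFB and MatFB-Type 2, and those that differed were higher in cuff cells. Hedgehog ligands of the lung come from epithelium, bind Ptch1 on mesenchyme and induce Hhip, Ptch1 and Gli1 there. Of 12 genes measured, 4 were higher and 0 lower in cuff cells than in AdvFB, likewise 4 and 0 against MatFB-Type 2, and 6 higher and 2 lower against MyoFB. The shares of all genes were 7.32% higher and 5.43% lower against AdvFB, 8.20% and 6.02% against MatFB-Type 2, and 10.8% and 10.2% against MyoFB. Hhip, which binds and sequesters the ligand, was 584 CPM in cuff cells and 198, 179 and 109 CPM in AdvFB, MatFB-Type 2 and MyoFB cells. Ptch1, the receptor, was 443 CPM in cuff cells and 151, 305 and 310 CPM. Foxl1, a target of hedgehog signalling in gut mesenchyme, was 36.2 CPM in cuff cells and 4.10 to 7.06 CPM in the others.

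Among growth factors, 6 of 11 FGF genes were higher and 0 lower in cuff cells than in AdvFB, and 1 of 13 higher and 2 lower than in MatFB-Type 2. The first count stands beside 7.32% of all genes, and 1 of 13 is near the 8.20% of all genes higher than in MatFB-Type 2. Fgf10, a mesenchymal ligand for lung epithelium, was 196 CPM in cuff cells, 41.3 CPM in AdvFB, 376 CPM in MatFB-Type 2 and 5.58 CPM in MyoFB cells. Of TGF-beta and BMP genes, 10 of 29 were higher and 7 lower than in AdvFB (7.32% and 5.43% of all genes). Against MatFB-Type 2, 7 of 28 were higher and 3 lower (8.20% and 6.02%). Bmp7 was 42.0 CPM in cuff cells and 0.171 to 1.12 CPM in the other groups. Tgfb3 was 204 CPM in cuff cells and 80.6, 45.0 and 103 CPM in AdvFB, MatFB-Type 2 and MyoFB cells. Igfbp6, a binding protein of insulin-like growth factors, was 405 CPM in cuff cells, 122 CPM in AdvFB, 86.6 CPM in MatFB-Type 2 and 1.03 CPM in MyoFB cells.

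Transcription factors showed a mixed set. Of 30 mesenchymal factors measured against AdvFB, 8 were higher and 7 lower in cuff cells (7.32% and 5.43% of all genes), and against MatFB-Type 2 8 of 27 were higher and 1 lower (8.20% and 6.02%). Tbx4, a factor of lung mesenchyme, was 204 CPM in cuff cells, 19.96 CPM in AdvFB, 294 CPM in MatFB-Type 2 and 473 CPM in MyoFB cells. Twist2 was 155 CPM in cuff cells, 74.4 CPM in AdvFB, 3.37 CPM in MatFB-Type 2 and 2.49 CPM in MyoFB cells. Meox2 was the 1 lower than in MatFB-Type 2, at 83.5 CPM in cuff cells, 173 CPM in AdvFB and 305 CPM in MatFB-Type 2 cells.

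Among chemokines, cytokines and complement genes, more were lower than higher against AdvFB. Of 14 chemokine and cytokine genes measured, 2 were higher and 7 lower in cuff cells than in AdvFB. Against MyoFB, 11 of 12 were higher and 0 lower. Among all genes, 7.32% were higher and 5.43% lower than in AdvFB, 8.20% and 6.02% than in MatFB-Type 2, and 10.8% and 10.2% than in MyoFB. Tslp, a cytokine that acts on group 2 innate lymphoid cells, was 57.9 CPM in cuff cells and 17.8, 13.5 and 15.9 CPM in AdvFB, MatFB-Type 2 and MyoFB cells. Il33, another cytokine of that axis, was 15.9 CPM in cuff cells, 82.3 CPM in AdvFB and 0 UMIs in MatFB-Type 2 cells. Cxcl14 was 78.7 CPM in cuff cells, 1.83 CPM in AdvFB and 107 CPM in MatFB-Type 2 cells. Cxcl12 was 49.7 CPM in cuff cells, 293 CPM in AdvFB and 47.2 CPM in MatFB-Type 2 cells. Of 10 complement genes, 0 were higher and 5 lower than in AdvFB, 3 of 9 were higher and 1 lower than in MatFB-Type 2 (median log2 ratio 0.91), and 8 of 8 were higher than in MyoFB. With only the 92 cuff cells of the main cluster, described below, the median over MatFB-Type 2 was -0.17, and 7 of the 8 stayed higher than in MyoFB. The chemokine and cytokine medians also moved with these 92 cells. They went from -0.96 to -1.74 over AdvFB, from 0.27 to -0.24 over MatFB-Type 2 and from 2.62 to 1.79 over MyoFB.

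Contractile and myofibroblast genes were lower than in MyoFB. Against AdvFB, more smooth muscle genes were higher than lower, while the median of the myofibroblast markers was near that of all genes. Of 13 alveolar myofibroblast markers, 0 were higher and 12 lower in cuff cells than in MyoFB (median log2 ratio -3.93), and of 12 smooth muscle genes 0 were higher and 10 lower (median -3.39). Against AdvFB, 4 of 10 myofibroblast markers were higher and 2 lower. Their median log2 ratio was 0.15, near the 0.10 of all counted genes, and -0.001 under TMM. Of 8 smooth muscle genes, 5 were higher and 0 lower (median 1.16). Against MatFB-Type 2, 3 of 12 myofibroblast markers were higher and 2 lower, and 1 of 9 smooth muscle genes was higher and 3 lower. The shares of all genes were 7.32% higher and 5.43% lower against AdvFB, 8.20% and 6.02% against MatFB-Type 2, and 10.8% and 10.2% against MyoFB. Acta2, smooth muscle actin, was 82.1 CPM in cuff cells, 35.0 CPM in AdvFB, 189 CPM in MatFB-Type 2 and 1356 CPM in MyoFB cells. Tagln, or transgelin, was 58.9 CPM in cuff cells and 26.8, 137 and 1719 CPM. Per 5000 UMIs the 13 myofibroblast markers gave a median of 4 UMIs in cuff cells, against 93 in MyoFB cells, but 3 cuff cells held at least 20. Without these 3 cells, Egfem1, the myofibroblast marker with the highest level, was 91.4 CPM in cuff cells in place of 344 CPM. Egfem1 was 1 of the 4 markers called higher than in AdvFB, and that call was not computed again without these 3 cells. The AdvFB cells with at least 5 Xist UMIs, a part of that group, had Egfem1 at 103 CPM. Whether the 3 cells were doublets was not tested.

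H2BGFP, the transcript read from the Pdgfra locus, was 71.0 CPM in cuff cells, 99.8 CPM in AdvFB, 60.7 CPM in MatFB-Type 2 and 231 CPM in MyoFB cells, and Pdgfra was 260, 262, 238 and 492 CPM in the same order. CreERT2, read from the Fgf18 locus, was 1.45 CPM in cuff cells (3 UMIs), 0.973 CPM in AdvFB, 1.12 CPM in MatFB-Type 2 and 20.5 CPM in MyoFB cells. Fgf18 itself was 5.79 CPM in cuff cells and 3.29, 10.1 and 62.1 CPM in the others. TDT, the tdTomato transcript, was 2.41 CPM in cuff cells (5 UMIs) and 0.608 to 4.96 CPM in the others. Of markers of other lineages, the 9 endothelial genes summed to 41.5 CPM in cuff cells, with Kdr, Cldn5 and Emcn at 0, the 10 epithelial genes to 17.9 CPM, with Epcam at 0, the 8 immune genes to 6.28 CPM, with Ptprc at 0, and the 8 mesothelial genes to 1.93 CPM, with Wt1 and Msln at 0. The 12 cartilage genes summed to 63.7 CPM, of which Matn4 gave 43.5 CPM, and Col2a1 was at 0. Other lists stood higher. The 4 peribronchial genes summed to 1277 CPM in cuff cells and 912, 538 and 987 CPM in AdvFB, MatFB-Type 2 and MyoFB cells. The 9 pericyte genes summed to 410 CPM in cuff cells and 402, 150 and 314 CPM in the same order. The 7 tendon and ligament genes summed to 168 CPM in cuff cells, against 138, 249 and 1234 CPM. In AdvFB, MatFB-Type 2 and MyoFB cells the endothelial sum was 165, 20.2 and 23.5 CPM, the epithelial sum 22.1, 34.9 and 15.1 CPM, the immune sum 12.7, 19.1 and 16.8 CPM, the mesothelial sum 3.41, 14.6 and 1.46 CPM and the cartilage sum 37.7, 15.7 and 40.04 CPM.

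The named cells were not 1 group. When all 6142 cells were clustered together, 92 of the 110 cuff cells fell in a single cluster, 10 in a cluster that held 306 AdvFB cells of the gate and 8 in one that held 35 of its MatFB-Type 2 cells. The counts were also 92, 10 and 8 at a lower resolution, and at a higher one 99 cuff cells shared a cluster. Adh7 was 136 CPM in the 92 cells and 4.804 CPM in the other 18, Itgbl1 442 and 67.3 CPM, and Eln 12287 and 2530 CPM. Unc5d, Wif1, Lgr5, Notum and Sfrp2 had no UMI in the other 18 cells. Those 18 carried what the 92 nearly lacked. Rspo2 was 0 in the 92 cells and 91.3 CPM in the 18, C7 was 0 and 55.2 CPM, C3 13.9 and 161 CPM, Postn 13.9 and 195 CPM, and Ccl11 3.02 and 226 CPM. Dcn was 334 CPM in the 92 cells and 1790 CPM in the 18, and Ebf1 38.1 and 192 CPM. Over all 110 cells most UMIs of Rspo2, C7, C3, Postn, Ccl11, Dcn and Ebf1 came from those 18.

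The same cluster also held 4 of the 44 MatFB-Type 2 cells of the gate, 1 AdvFB cell and 1 MyoFB cell. These cells were kept in the levels of their own groups, and their part in those levels was not tested. The cluster held cells of the other library too. Of the 205 GFP-low cells of the same name, 18 fell in it and 187 did not. In the 92 GFP-high cells Adh7 was 136 CPM, Wif1 228 CPM, Lgr5 133 CPM, Mannr 485 CPM and Eln 12287 CPM, against 97.4, 243, 162, 365 and 10320 CPM in those 18 GFP-low cells. Other genes differed more between the gates within the cluster. Dcn was 334 CPM in the 92 GFP-high cells and 111 CPM in the 18 GFP-low cells, Agtr2 183 and 86.5 CPM, Limch1 1224 and 654 CPM, and Postn 13.9 and 67.6 CPM. Unc5d was 106 CPM (90.7 to 122.6) and 8.11 CPM (1.67 to 23.7). All 175 Unc5d UMIs of the 92 cells lay in 12 cells, however, and these intervals do not cover the spread between cells. Each gate is also a separate library, so gate and library cannot be told apart. In the 187 other GFP-low cells Adh7 was 0.52 CPM, Wif1 0.26 CPM, Mannr 1.82 CPM and Eln 4715 CPM, while Limch1 was 3329 CPM and Tcf21 1124 CPM. Adh7 was thus 109.6 CPM and Unc5d 84.5 CPM over the 110 GFP-high cuff cells, against 9.01 and 1.42 CPM over all 205 GFP-low cells. Of the cells named MatFB-Im,Cuff, 92 of 110 in the GFP-high gate and 18 of 205 in the GFP-low gate thus fell in this cluster. Its summed levels of Adh7, Wif1 and Lgr5 were high, but not every cell in it showed these genes. With all UMIs, Wif1 was seen in 54 of the 92 GFP-high cells, and Adh7 in 57 of the 110. The clusters were made from the same cells' genes, so this is a description.

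**Figure D5:**
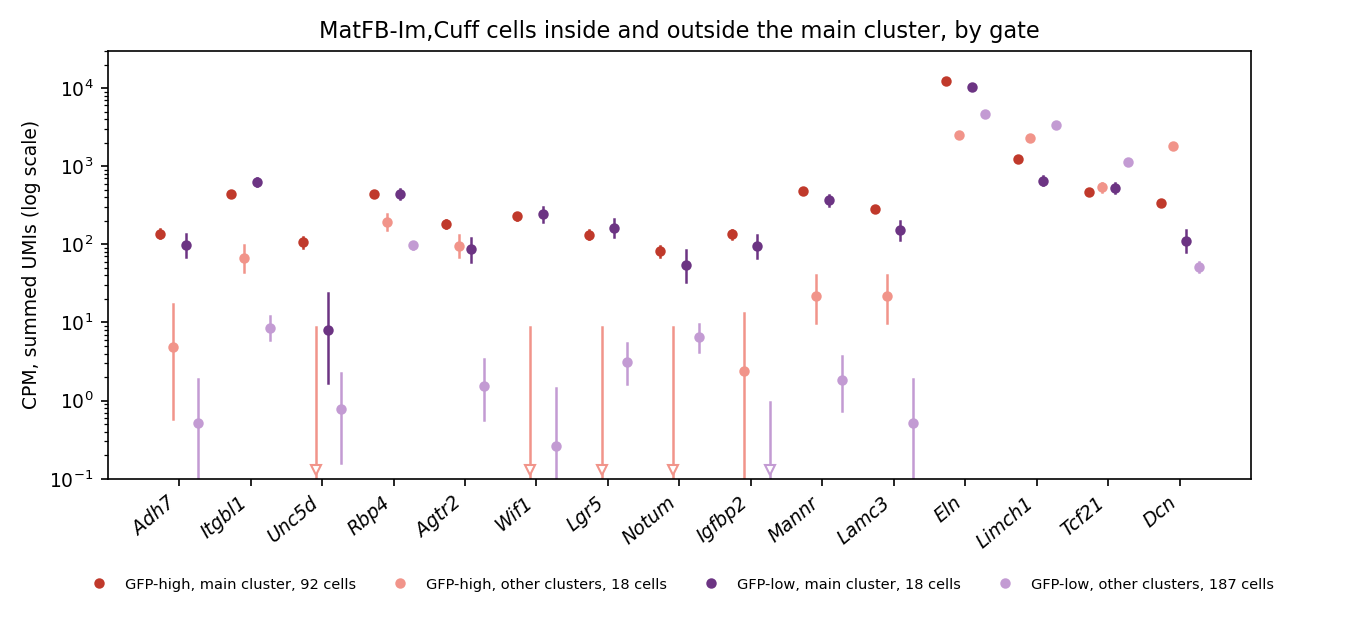
Level of 15 genes in CPM of summed UMIs (vertical axis, log scale) in MatFB-Im,Cuff cells, split by gate and by whether they fell in the main cluster of the GFP-high cuff cells. Bars are exact Poisson 95% intervals, cut at the lower edge of the axis, and open triangles mark 0 UMIs. The 92 GFP-high and 18 GFP-low cells of the main cluster stand together for Adh7, at 136 and 97.4 CPM, and apart from the 18 and 187 other cells, at 4.804 and 0.52 CPM.

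The 92 cells also varied among themselves. The genes and split given next were picked because they showed this, so they describe the cells and support nothing. In a split chosen after the values were seen, 54 of the 92 cells had a Wif1 UMI and 38 had none, at median depths of 16738 and 16752 UMIs. Cells with Wif1 had Lgr5 at 200.4 CPM, Notum at 120 CPM, Lrrc7 at 136 CPM and Eln at 14357 CPM, against 25.1, 20.4, 7.85 and 8978 CPM in cells without it. Limch1 was 921 CPM in cells with Wif1 and 1710 CPM in cells without it, and Dcn 122 and 672 CPM, whereas Tcf21 was 456 and 476 CPM and Agtr2 189 and 174 CPM. Across the 92 cells, Pearson's r of log-scaled levels lay between 0.193 and 0.565 for the 10 pairs among Wif1, Lgr5, Notum, Osr2 and Lrrc7, and between -0.597 and -0.372 for Limch1 with each of them. For 10140 other genes seen in at least 10% of these cells, r with Wif1 lay between -0.204 and 0.210 from the lower to the upper 5% point. Eln and Dcn had r = -0.59. All 92 points share a library, and r with the UMIs per cell was -0.09 to 0.09 for Wif1, Lgr5, Notum, Osr2, Lrrc7, Eln, Limch1 and Dcn.

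The 12 cells with Unc5d, also looked at after values were seen, were all in the main cluster. They had Adh7 at 235 CPM and Dcn at 38.0 CPM, against 115 and 396 CPM in the other 80 cells of that cluster, at median depths of 22052 and 16183 UMIs. Of the other cuff markers, Adh7 varied with Wif1, Lgr5 and Osr2 (r = 0.310, 0.330 and 0.416) and against Limch1 (r = -0.403). With Notum and Lrrc7 its r was lower, at 0.238 and 0.162. The range of r over all other genes was not taken for Adh7. For Agtr2, Itgbl1 and Rbp4, r with Wif1 was -0.167, -0.136 and 0.095.

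The cuff profile was present whether or not cells held Xist, the RNA that silences an X chromosome in females. In the 50 cuff cells with at least 5 Xist UMIs, Adh7 was 131 CPM, Unc5d 67.9 CPM, Wif1 191 CPM and Eln 10089 CPM. In the 56 cells with a Y-linked UMI and no Xist, Adh7 was 93.5 CPM, Unc5d 105 CPM, Wif1 183 CPM and Eln 10590 CPM. Of the 50 cells with Xist, 44 also held Y-linked UMIs, with a median of 3 over the 50, where the 56 cells had a median of 6.5. Whether free RNA or doublets gave them was not tested, so the 50 cells cannot be called female. Some genes differed more between these cells. Ecrg4 was 26.8 CPM in the Xist cells and 148 CPM in the Y-linked cells, Aldh1a1 40.2 and 129 CPM, Postn 23.7 and 77.1 CPM, and Itgbl1 248 and 473 CPM. In AdvFB cells of the same kinds Ecrg4 was 3.76 and 4.54 CPM, Aldh1a1 26.7 and 50.2 CPM, Postn 1937 and 1811 CPM, and Itgbl1 167 and 273 CPM. How many pups stand behind either set is not given, so sex and pup cannot be told apart.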

How the data were processed

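Droplet 3' RNA libraries of 3 sorts were analysed. The deposited count matrix holds whole-number UMI counts per gene and cell, made by the authors with Cell Ranger 7.0.0 on mm10, per the submitters' processing notes, and cells were filtered before deposit by a rule not given in the sources used here. The percentage of mitochondrial UMIs per cell and the cell type names are the authors' deposited values. How the names were made is likewise not given.

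The members and gene lists were chosen with earlier results of these data known. UMIs were summed by name within the gate, scaled to CPM, and compared as log2 ratios of CPM + 1 with no test, since each gate is 1 library. Counting intervals (95%) are exact Poisson for levels, conditional binomial for ratios and Clopper-Pearson for shares. A group with 0 UMIs was set at a floor of 3 counts over the group. No doublet caller was run. Genes named were the 10 highest and 10 lowest ratios per comparison among genes that reached 50 CPM and 10% of cells where they were higher, the 15 and 10 farthest from all groups together, a fixed set with the markers and reporters, and up to 6 members per list. Not all of these are printed. All cells were clustered with scanpy 1.11.5 (2000 variable genes, 30 components, 15 neighbours, Leiden at resolutions 0.5, 1.0 and 2.0). TMM factors came from edgeR 4.0.16 and size factors from DESeq2 1.42.0, both used for scaling only. The interval and ratio code was tested on simulated Poisson counts of group sums. These hold no spread between cells, so the simulation does not cover it. In all, 12 alternatives were run, of which 1 was added after the data were seen.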

Additional observations from a re-analysis of the deposited data

How the results depend on the processing

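No paired analysis was possible because each gate was 1 library and no result comes from a test. A stricter minimum of 50 CPM and 10% of cells left 349 genes higher and 242 lower than in AdvFB, 257 and 213 against MatFB-Type 2, 572 and 498 against MyoFB, and 74 and 5 against all 3. A minimum of 1 CPM with no share of cells gave 1390 and 1391, 2342 and 2448, 1877 and 2462, and 315 and 176. With cells thinned to 5000 UMIs 1442 genes were higher and 1046 lower than in MatFB-Type 2, and with Y-linked cells only 1424 and 999; both leave fewer UMIs in that group of 44 cells. Genes lower than all 3 groups numbered 70 after thinning, 42 with the main cluster alone, 44 with Y-linked cells, 44 with cells of at least 5 Xist UMIs and 10 with a pseudocount of 5 CPM, against 18 as reported; the cause was not tested. Of the genes named and called, 79 of 81 kept their direction over AdvFB under every alternative. Over MatFB-Type 2 it was 63 of 66 and over MyoFB 79 of 81. Under every alternative 68, 51 and 71 stayed at least 2-fold apart. The changed minimums leave each gene's ratio as it was, and a larger pseudocount cannot turn its direction. Those alternatives therefore could not lower the counts of kept directions. With the main cluster alone the log2 ratio of Rspo2 turned to -3.14 over AdvFB and -0.34 over MyoFB, that of Postn to -0.43 and of C3 to -0.35 over MatFB-Type 2, and that of C7 to -0.18 over MyoFB, as the 18 other cells held most of their UMIs. With Y-linked cells Marchf3 turned to 0.93 over MatFB-Type 2, and with cells of at least 5 Xist UMIs Bmper turned to 0.062 over AdvFB and Postn to -0.23 over MatFB-Type 2; the cause was not tested. The planned choice of cells with Xist and no Y-linked UMI was not run, since it kept 6 cuff cells. Levels near the minimum rest on few UMIs, most of all in MatFB-Type 2 cells, where 3 counts are 3.37 CPM.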

Other observations

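Immediate early genes respond within minutes to stimuli that include tissue dissociation. Against AdvFB, 0 of 16 measured members were at least 2-fold higher and 0 lower in cuff cells (7.32% and 5.43% of all genes). Their median log2 ratio over AdvFB was -0.31, below the 0.10 of all counted genes. This median was -0.47 under TMM and -0.63 with the main cluster alone. Against MatFB-Type 2, 4 of 16 were higher in cuff cells and 0 lower (8.20% and 6.02% of all genes). Against MyoFB, 13 of 16 were higher and 0 lower (10.8% and 10.2%). Their part in the other differences from MyoFB was not tested.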
